A study of Mus musculus with 11 samples.

Results

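The Frizzled genes and the LRP5/6 genes encode the cell surface receptors to which secreted WNT proteins bind. The genes described here are *Fzd1*, *Fzd2*, *Fzd3*, *Fzd4*, *Fzd6*, *Fzd7*, *Fzd8*, *Fzd10*, *Lrp5* and *Lrp6*. They were taken by their symbols, which the gene annotation pairs with the Ensembl identifiers of the count files, and they are 10 of the 38561 genes in those files. All 10 had enough counts to be tested, as did 17317 genes in all by edgeR's filterByExpr. RNA was sequenced from explants of the facial processes, that is, mandibular and maxillary arch and nasal processes dissected together at E10.5 from mouse embryos of mixed strain. The groups were wild type (wt, n = 2), embryos homozygous mutant for *Rspo2* (Rspo2KO, n = 3), embryos homozygous mutant for *Wnt9b* (Wnt9bKO, n = 3), and embryos homozygous mutant for both (DKO, n = 3). The mutations are carried by every cell of the embryo, and the sources used here do not say whether a library came from 1 embryo or a pool. The p-values below therefore measure the spread between these libraries.

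In the canonical pathway, a WNT protein brings a Frizzled, a receptor that crosses the membrane several times, together with LRP5 or LRP6, co-receptors that cross the membrane once. The Frizzled tail then recruits Dishevelled, the LRP tail is phosphorylated by GSK3 and casein kinase 1 and binds Axin, and β-catenin is no longer degraded. The ubiquitin ligases ZNRF3 and RNF43 remove Frizzled from the surface, and R-spondins such as RSPO2 inhibit these ligases, so both mutated genes act at the level of the receptors. In the developing face this pathway is known for its part in the outgrowth and fusion of the facial processes.

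The receptors are joined to the partners described further below through short tail motifs, which are shown because the partner genes *Dvl1*, *Gsk3b* and *Csnk1g2* act on them. In the Frizzled family the motif is lysine, threonine, any 3 residues and tryptophan, which contacts Dishevelled. It was searched for codon by codon on the coding strand of the longest coding sequence of each gene in the GENCODE M21 annotation (GRCm38), and each of the 8 Frizzled genes held exactly 1 match. A match was present in 2.16% of all 20816 protein-coding genes searched. The codons of lysine, threonine and tryptophan are in capitals.
Fzd1, chr5:4755706-4755723, minus strand: AAGACActgaattccTGG
Fzd2, chr11:102606373-102606390, plus strand: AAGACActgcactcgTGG
Fzd7, chr1:59484607-59484624, plus strand: AAGACCctgcagtcaTGG
Fzd10, chr5:128602796-128602813, plus strand: AAGACCctgcagtccTGG
Fzd4, chr7:89408241-89408258, plus strand: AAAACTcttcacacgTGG
Fzd3, chr14:65212107-65212124, minus strand: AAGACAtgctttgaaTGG
Fzd6, chr15:39033949-39033966, plus strand: AAGACGtgcacagaaTGG
The coding sequence ended 17 codons after the motif in *Fzd1*, *Fzd2* and *Fzd7*, 33 after it in *Fzd4*, 50 in *Fzd10*, 74 in *Fzd8*, whose site is not printed, 159 in *Fzd3* and 206 in *Fzd6*, so that *Fzd3* and *Fzd6* code for much longer tails. All of the printed sites lie within a coding exon.

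The LRP tail carries repeats of 3 prolines, serine or threonine, proline, any residue and serine or threonine, which GSK3 and casein kinase 1 phosphorylate and Axin then binds. In this strict form *Lrp5* and *Lrp6* each held 3 matches. Only 2 of the 20816 protein-coding genes searched held 3 or more, and 0.216% held at least 1. All codons except that of the free residue are in capitals.
Lrp5 site 1, chr19:3586451-3586471, minus strand: CCACCCCCGTCCCCGgccACA
Lrp5 site 2, chr19:3585135-3585155, minus strand: CCCCCGCCCACCCCCcacAGC
Lrp5 site 3, chr19:3585042-3585062, minus strand: CCCCCACCGTCCCCCtgcACG
Lrp6 site 1, chr6:134453618-134453638, minus strand: CCACCACCATCGCCTgccACA
Lrp6 site 2, chr6:134450903-134450923, minus strand: CCACCGCCCACACCCcgaAGC
Lrp6 site 3, chr6:134450798-134450818, minus strand: CCACCACCCTCCCCCtgcACG
The last of them ended 3 codons before the end of the coding sequence in both genes. *Lrp5* and *Lrp6* are built alike, with 23 coding exons each, whereas *Fzd1*, *Fzd2*, *Fzd7*, *Fzd8* and *Fzd10* have 1, *Fzd4* has 2 and *Fzd3* and *Fzd6* have 6.

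Some properties of the libraries bear on all values below. Total counts ranged from 11136166 to 18017344 per library, and the 10 genes had between 100 and 5327 counts in a library. *Rspo2* was at 14.8 and 16.0 CPM in wt, where CPM are counts relative to the library total after TMM scaling, and at 4.74 to 6.59 CPM in the libraries labelled Rspo2KO. However, the library labelled Wnt9bKO 2 was at 2.86 CPM and the library labelled DKO 3 at 15.5 CPM, so the *Rspo2* counts of both go against their labels, and genotypes here always mean the labels. *Wnt9b* was not lower in the libraries labelled Wnt9bKO and DKO, at 16.2 to 23.3 CPM, than in wt, at 10.8 and 13.4 CPM, and the counts do not show which exons were read. Small nuclear RNAs took 351.8 to 419.6 CPM in the wt and Rspo2KO libraries but 70.1 to 82.7 CPM in the Wnt9bKO and DKO libraries, and 5 erythroid genes together fell from 3876 to 5658 CPM in the former to 1667 to 2740 CPM in the latter. The 5 forebrain and eye markers summed to 43.5 and 45.4 CPM in wt, 52.6 to 70.0 in Rspo2KO, 71.4 to 134.9 in Wnt9bKO and 73.7 to 91.9 in DKO, and none of them was at 0 in any library. Facial mesenchyme markers, which define the tissue named by the labels, summed to 944 and 1024 CPM in wt and 682 to 761 in Rspo2KO. They summed to 641 to 1223 CPM in Wnt9bKO and 788 to 878 in DKO. The 6 epithelial markers summed to between 205 and 242 CPM in every library, but they did not move together. *Krt8* was at 64.1 and 69.5 CPM in wt and lower, at 40.9 to 55.1 CPM, in Wnt9bKO. *Trp63* was at 30.5 and 32.6 CPM in wt and higher, at 35.1 to 42.1 CPM, in Wnt9bKO. The 5 neuron markers summed to 439 and 485 CPM in wt, 537 to 590 in Rspo2KO, 263 to 384 in Wnt9bKO and 462 to 505 in DKO. Heart and muscle markers summed to 46.8 CPM in wt 1, 7.37 in wt 2 and 2.32 to 9.47 in the mutant libraries. *Xist* was at 679.6 CPM or more in the wt and DKO libraries and below 2 CPM in the others, so sex also differed between the labels. *Ddx3y*, a male marker, was at 57.6 to 75.7 CPM in the Rspo2KO and Wnt9bKO libraries. It was at 1.07 CPM or less in wt, DKO 1 and DKO 2 but at 4.43 CPM in DKO 3. The part of these differences in the receptor values was not tested. In whole tissue, fewer cells of a type and less RNA per cell cannot be told apart.

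For levels between genes, CPM were divided by the length of the merged exons in kilobases, which gives RPKM. By this measure *Fzd2* was the most abundant receptor transcript in each of the 11 libraries, with a mean of 42.6 RPKM, followed in each by *Fzd7* with a mean of 25.3 RPKM. Mean levels then declined over *Lrp6* (16.0 RPKM), *Fzd1* (15.8 RPKM), *Fzd3* (14.4 RPKM), *Fzd8* (8.32 RPKM), *Fzd10* (8.16 RPKM), *Fzd4* (4.33 RPKM), *Lrp5* (4.26 RPKM) and *Fzd6* (2.29 RPKM). Neighbours in this order often changed places. *Lrp6* exceeded *Fzd1* in 6 of 11 libraries, *Fzd1* exceeded *Fzd3* in 8, *Fzd8* exceeded *Fzd10* in 5 and *Fzd4* exceeded *Lrp5* in 6. Every library thus held transcripts of at least 8 Frizzled genes beside both co-receptors. Of the remaining Frizzled genes, which are no part of the 10, *Fzd5* had a mean of 4.18 RPKM and *Fzd9* of 1.44 RPKM.

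**Figure D1:**
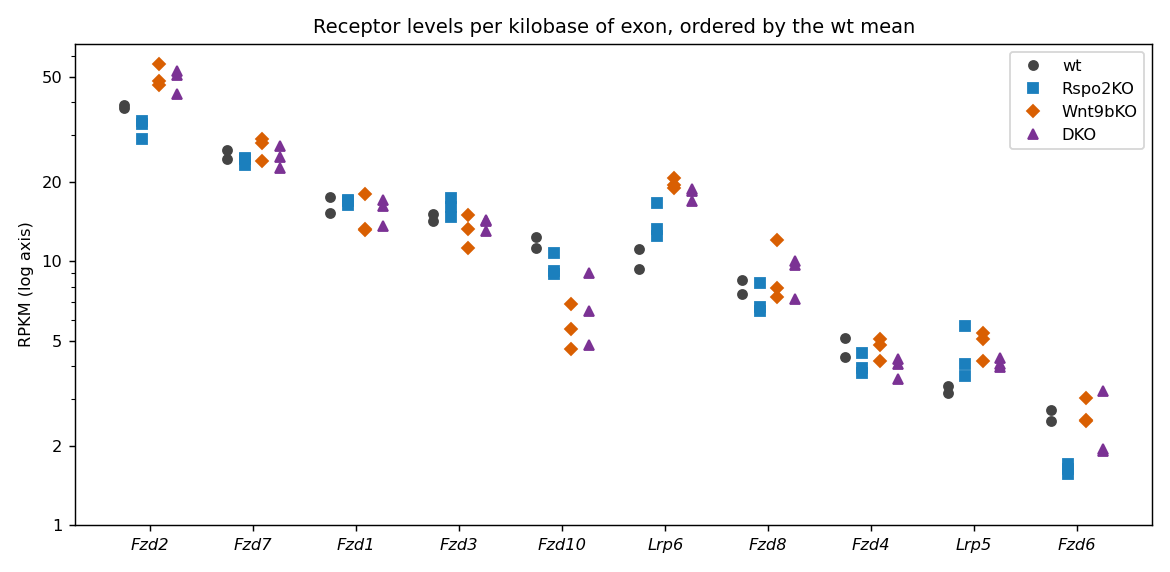
RPKM of the 10 receptor genes on a log axis, with 1 point per library and genes ordered from left to right by their wt mean. *Fzd2* is highest in all libraries, while *Lrp6* lies at 9.35 and 11.1 RPKM in wt and at up to 20.7 RPKM in the Wnt9bKO libraries.

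Against wt, the Wnt9bKO libraries had higher *Lrp6*, *Lrp5* and *Fzd2* and lower *Fzd10*, and the DKO libraries higher *Lrp6* and lower *Fzd10*. In the Rspo2KO libraries none of the 10 genes passed the test. A gene was called at an adjusted p below 0.05 in a two-sided quasi-likelihood test of edgeR, adjusted by Benjamini and Hochberg's method over all genes tested. By this rule 4 of the 10 were called in Wnt9bKO against wt, where 32.8% of all genes tested were called, and 2 of 10 in DKO against wt, where 27.5% were called. In Rspo2KO against wt 0 of 10 were called, beside 0.0346% of all genes. These shares do not stand apart from the background as a result about the group, and the values that follow are given gene by gene. The median log2 fold change of the 10 genes was 0.06 in Wnt9bKO, -0.12 in Rspo2KO and -0.05 in DKO, beside 0.01, 0.00 and 0.01 over all genes tested. The 3 comparisons share the wt libraries. Mutant and wt libraries did not overlap in 56.3% of all genes tested for Wnt9bKO, 32.9% for Rspo2KO and 58.1% for DKO. Against Rspo2KO these shares were 37.6% for Wnt9bKO and 36.5% for DKO. Groups without overlap, as given below for single genes, were therefore common in these data.

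**Figure D2:**
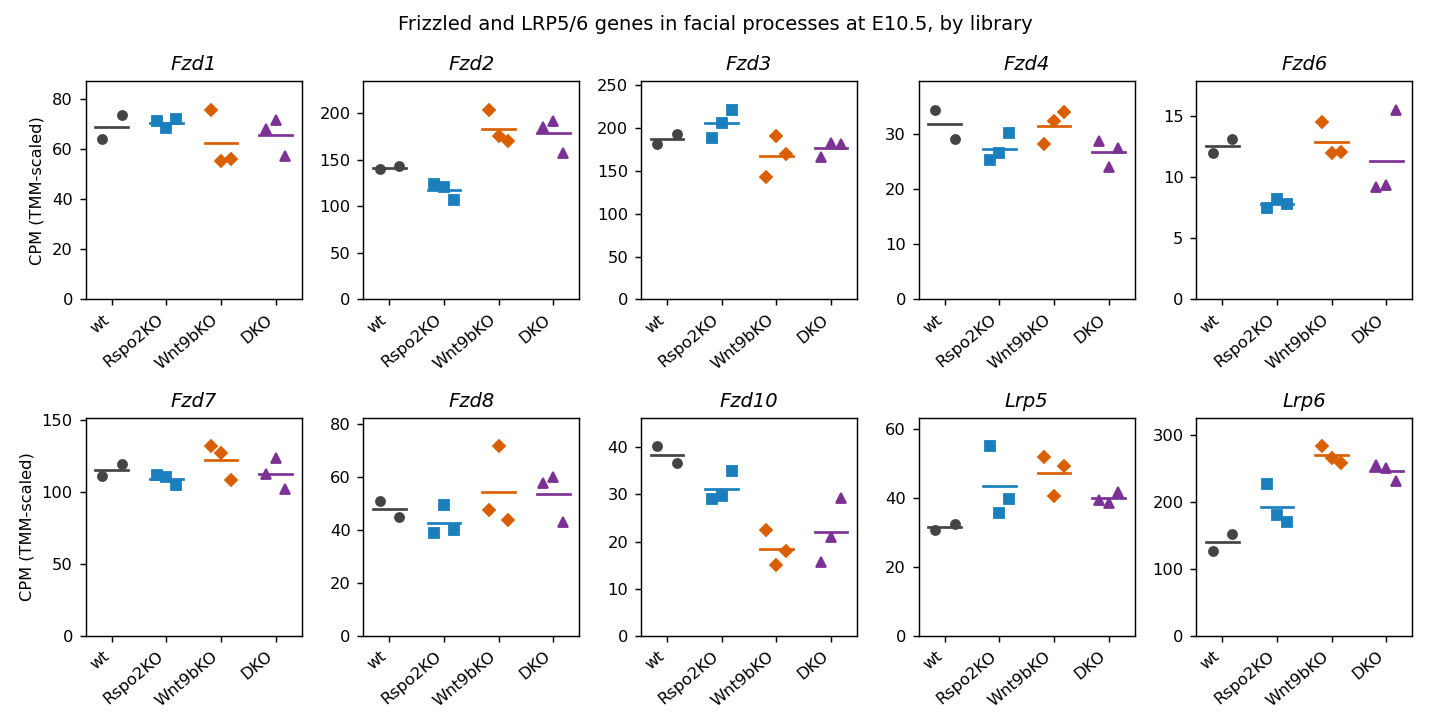
CPM of each receptor gene in every library, grouped by genotype label, with 1 point per library, a horizontal line at the group mean and the axis of each panel starting at 0. All Wnt9bKO and DKO points for *Lrp6* lie above both wt points, at 231.2 to 283.6 CPM against 127.8 and 152.4 CPM, and all of those for *Fzd10* lie below them.

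*Lrp6* (ENSMUSG00000030201, chromosome 6 from 134446476 to 134566965), the co-receptor that carries most of the LRP transcript in this tissue, had the largest rise. It was at 127.8 and 152.4 CPM in wt, at 227.0, 180.9 and 170.8 CPM in Rspo2KO, at 283.6, 266.5 and 259.2 CPM in Wnt9bKO and at 256.0, 251.6 and 231.2 CPM in DKO. All 9 mutant libraries lay above both wt libraries, and all Wnt9bKO and DKO libraries lay above all Rspo2KO libraries. The log2 fold change against wt was 0.94 in Wnt9bKO (SE 0.13, adjusted p = 0.000172), 0.81 in DKO (SE 0.13, adjusted p = 0.000582) and 0.46 in Rspo2KO (SE 0.13, adjusted p = 0.221). The first and the second held in all 22 alternative fits, with values of 0.63 to 1.07 and 0.51 to 0.94. Without the filter on low counts the difference in Rspo2KO was 0.47 with an adjusted p of 0.0366. DKO was 0.13 below Wnt9bKO on the log2 scale (-0.13, interval of 2 SE from -0.36 to 0.10, adjusted p = 0.978).

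*Lrp5* (ENSMUSG00000024913, chromosome 19 from 3584828 to 3686564), the paralog of *Lrp6*, was at 30.7 and 32.6 CPM in wt, 55.1, 35.6 and 39.8 CPM in Rspo2KO, 52.1, 40.6 and 49.4 CPM in Wnt9bKO and 39.6, 38.6 and 41.8 CPM in DKO. All 9 mutant libraries lay above wt here too, but the mutant groups overlapped one another and Rspo2KO 1 stood well above its group. It rose by a log2 fold change of 0.58 in Wnt9bKO (SE 0.16, adjusted p = 0.0151), a call that ended without wt 1 (0.53, adjusted p = 0.120), without wt 2 (0.62, adjusted p = 0.0692) and with an offset for GC content and length (0.29, adjusted p = 0.0932). The values in Rspo2KO, 0.45 (SE 0.16, adjusted p = 0.293), and in DKO, 0.34 (SE 0.16, adjusted p = 0.146), did not pass. In DKO the change was called without Rspo2KO 1 in the fit (adjusted p = 0.0469) and with only wt and DKO in it (adjusted p = 0.0257).

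Among the Frizzled receptors, *Fzd10* (ENSMUSG00000081683, chromosome 5 from 128600844 to 128604093), which signals through β-catenin, had the largest change. It was at 40.2 and 36.5 CPM in wt, 29.1, 29.7 and 34.9 CPM in Rspo2KO, 22.4, 15.1 and 17.9 CPM in Wnt9bKO and 15.6, 21.1 and 29.3 CPM in DKO. Every mutant library was below both wt libraries, and only in DKO 3 did a library mutant for *Wnt9b* reach the Rspo2KO range. *Fzd10* fell by 1.05 on the log2 scale in Wnt9bKO (SE 0.21, adjusted p = 0.00188) and by 0.80 in DKO (SE 0.21, adjusted p = 0.0116), whereas the value in Rspo2KO was -0.29 (SE 0.21, adjusted p = 0.603). The fall in Wnt9bKO was called in all 22 alternatives and that in DKO in 21, the exception being the fit without wt 1 (-0.74, adjusted p = 0.0907). *Fzd10* also varied most within genotypes among the 10 genes, with an SD of 0.30 on the log2 scale beside a median of 0.20 over all genes tested.

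*Fzd2* (ENSMUSG00000050288, chromosome 11 from 102604396 to 102608058), the most abundant receptor, was at 140.0 and 142.7 CPM in wt, 124.0, 120.8 and 106.6 CPM in Rspo2KO, 203.8, 175.8 and 170.4 CPM in Wnt9bKO and 185.2, 191.9 and 157.2 CPM in DKO. The Wnt9bKO and DKO libraries all lay above wt and the Rspo2KO libraries all below it. It rose by a log2 fold change of 0.38 in Wnt9bKO (SE 0.12, adjusted p = 0.0264), and the values in DKO, 0.33 (SE 0.12, adjusted p = 0.0508), and in Rspo2KO, -0.27 (SE 0.12, adjusted p = 0.377), did not pass. The call in Wnt9bKO ended without wt 1 (0.36, adjusted p = 0.134), without wt 2 (0.39, adjusted p = 0.110) and without Wnt9bKO 1 (0.29, adjusted p = 0.0690). The change in DKO was called in 15 of 22 alternatives, including DESeq2 (0.32, adjusted p = 0.0352) and the fit without DKO 3 (0.41, adjusted p = 0.0266).

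Set against Rspo2KO rather than wt, *Fzd2* gave the clearest difference of all Frizzled genes. Of the 10 genes, 4 were called in Wnt9bKO against Rspo2KO, where 26.0% of all genes were called, namely *Fzd2*, *Fzd6* and *Lrp6* higher and *Fzd10* lower. In DKO against Rspo2KO 2 were called, *Fzd2* and *Lrp6*, both higher, beside 18.2% of all genes. For *Fzd2* the log2 difference was 0.65 in Wnt9bKO (SE 0.11, adjusted p = 0.000678) and 0.60 in DKO (SE 0.11, adjusted p = 0.00142), with no overlap between libraries and a call in all 22 alternatives for each. For *Lrp6* it was 0.48 in Wnt9bKO (SE 0.12, adjusted p = 0.00701), called in 22 alternatives, and 0.35 in DKO (SE 0.12, adjusted p = 0.0455), called in 12. The latter was lost without wt 1 (adjusted p = 0.0638), Rspo2KO 2 (0.155), Rspo2KO 3 (0.203), Wnt9bKO 3 (0.0547), DKO 1 (0.142), DKO 2 (0.130) or DKO 3 (0.0526), and with the offset for GC content and length (0.25, adjusted p = 0.0884). For *Fzd10* the log2 difference of Wnt9bKO from Rspo2KO was -0.76 (SE 0.19, adjusted p = 0.0105), or -0.67 with an adjusted p of 0.0536 without Rspo2KO 3. In both comparisons, the groups are also those that differ in small nuclear RNA and erythroid counts.

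*Fzd6* (ENSMUSG00000022297, chromosome 15 from 39006034 to 39038188), a receptor known for planar polarity, was the least abundant of the 10 genes, with 100 to 273 counts in a library. It was at 12.0 and 13.1 CPM in wt, 7.49, 8.20 and 7.83 CPM in Rspo2KO, 14.5, 12.0 and 12.1 CPM in Wnt9bKO and 9.16, 9.34 and 15.5 CPM in DKO. The Rspo2KO libraries were below every other library, and DKO 1 and DKO 2 lay between them and the wt libraries. The value in Rspo2KO against wt was -0.68 (SE 0.21, adjusted p = 0.242), which passed only when genes with low counts were kept (-0.67, adjusted p = 0.0347), and in Wnt9bKO *Fzd6* was higher than in Rspo2KO by 0.71 (SE 0.19, adjusted p = 0.0129, called in all 22 alternatives). DKO 3, the library whose *Rspo2* level was 15.5 CPM, had the highest *Fzd6* level of all, but Wnt9bKO 2, whose *Rspo2* level was 2.86 CPM, was at 12.0 CPM, like Wnt9bKO 3. Without DKO 3 and Wnt9bKO 2, the log2 fold change of DKO against wt moved from -0.15 (SE 0.21, adjusted p = 0.640) to -0.45 (SE 0.16, adjusted p = 0.0603). A noncoding RNA gene on the opposite strand, *Gm26704*, shares 152 exon bases with *Fzd6* and had 1 to 8 counts in a library.

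The remaining 5 receptors were not called between genotypes in the model over all libraries, although alternative fits called each of them except *Fzd7* in at least 1 comparison. *Fzd7* (ENSMUSG00000041075, chromosome 1 from 59482424 to 59486955), a β-catenin receptor of the same subgroup as *Fzd1* and *Fzd2*, was at 110.9 and 119.5 CPM in wt, 104.9 to 111.6 CPM in Rspo2KO, 108.3 to 131.8 CPM in Wnt9bKO and 102.1 to 123.3 CPM in DKO, and its groups overlapped. It had the smallest spread within genotypes of the 10 genes (SD 0.11 on the log2 scale), and its interval of 2 SE against wt ran from -0.14 to 0.31 in Wnt9bKO, from -0.31 to 0.14 in Rspo2KO and from -0.26 to 0.19 in DKO. *Fzd1* (ENSMUSG00000044674, chromosome 5 from 4753839 to 4758035) was at 63.8 and 73.6 CPM in wt and between 55.3 and 75.7 CPM in the mutant libraries, which lay on both sides of wt. Its log2 fold changes were -0.14 (SE 0.14), 0.03 (SE 0.14) and -0.07 (SE 0.14) in Wnt9bKO, Rspo2KO and DKO.

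*Fzd3* (ENSMUSG00000007989, chromosome 14 from 65192449 to 65262463), known for axon guidance and planar polarity, was at 181.5 and 192.8 CPM in wt, 188.6, 205.9 and 221.8 CPM in Rspo2KO, 143.1, 190.8 and 169.4 CPM in Wnt9bKO and 166.7, 183.2 and 181.4 CPM in DKO. The log2 fold change against wt was -0.16 in Wnt9bKO (SE 0.12, adjusted p = 0.344) and -0.08 in DKO (SE 0.12, adjusted p = 0.670). With an offset for GC content and length in each library, however, *Fzd3* was called lower in both, by -0.39 (adjusted p = 0.0140) and -0.32 (adjusted p = 0.0397). With this offset it was also called lower than in Rspo2KO, by -0.39 in Wnt9bKO (adjusted p = 0.0107) and by -0.32 in DKO (adjusted p = 0.0369). *Fzd4* (ENSMUSG00000049791, chromosome 7 from 89404355 to 89413134), the receptor of Norrin in blood vessels, was at 34.4 and 29.1 CPM in wt, 25.2 to 30.1 CPM in Rspo2KO, 28.2 to 33.9 CPM in Wnt9bKO and 24.0 to 28.7 CPM in DKO. The DKO libraries all lay below wt, with a log2 fold change of -0.24 (SE 0.13, adjusted p = 0.188), which became -0.40 with an adjusted p of 0.0288 when the offset was combined with a block for the replicate numbers.

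*Fzd8* (ENSMUSG00000036904, chromosome 18 from 9212163 to 9218136) is, like *Fzd5*, a receptor expressed in anterior neural tissue. It was at 50.8 and 44.9 CPM in wt, 38.8, 49.2 and 40.1 CPM in Rspo2KO, 47.4, 71.5 and 43.8 CPM in Wnt9bKO and 57.6, 59.9 and 42.9 CPM in DKO. Its log2 fold change was 0.18 in Wnt9bKO (SE 0.20, adjusted p = 0.511) and turned to -0.04 without Wnt9bKO 2, the library with the highest level. Against Rspo2KO, *Fzd8* was called higher in DKO when Wnt9bKO 2 and DKO 3 were left out (0.47, adjusted p = 0.0211), and in Wnt9bKO when genes with few counts were kept (0.34, adjusted p = 0.0418). *Fzd5* also peaked in Wnt9bKO 2, at 50.02 CPM against 28.2 and 31.7 CPM in the other Wnt9bKO libraries and 22.2 and 18.9 CPM in wt. The sum of the 5 forebrain and eye markers was highest in that library as well, at 134.9 CPM, with *Lhx2* alone at 75.5 CPM. *Rax*, however, was higher in DKO 2 (5.29 CPM) than in Wnt9bKO 2 (4.77 CPM). The part of these markers in the *Fzd5* and *Fzd8* values was not tested.

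**Figure D3:**
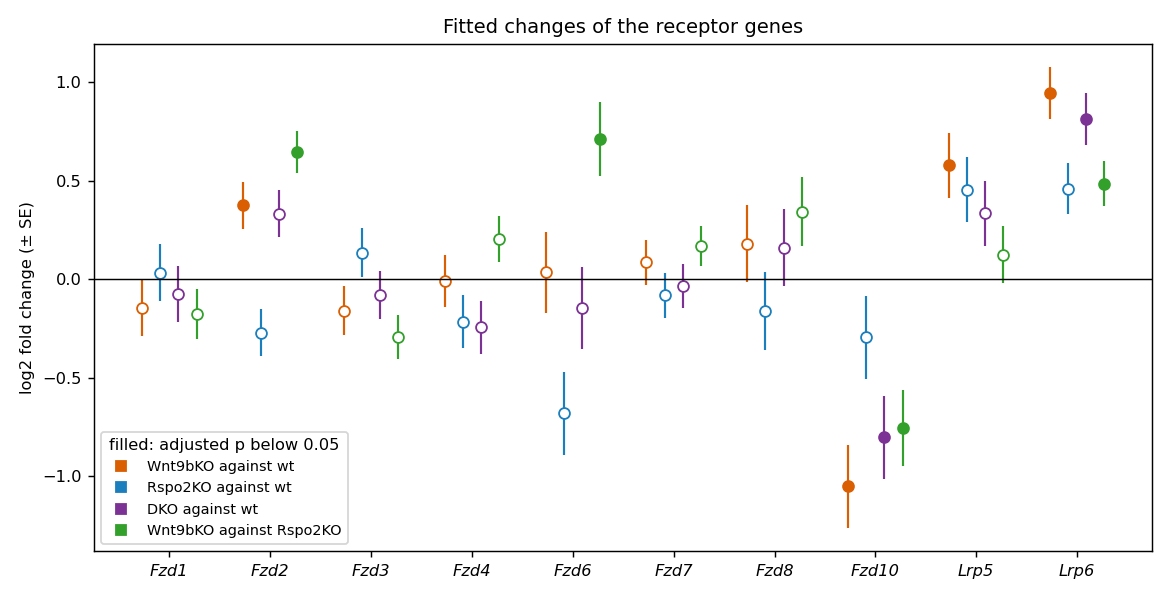
Fitted log2 fold changes of the 10 genes in 4 comparisons, given by colour, with bars of 1 SE and filled points for an adjusted p below 0.05. *Lrp6* lies at 0.94 in Wnt9bKO and 0.81 in DKO against wt and *Fzd10* at -1.05 and -0.80, while the open points of Rspo2KO against wt range from -0.68 (*Fzd6*) to 0.46 (*Lrp6*).

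No receptor gene was called where the labels differ in *Rspo2* alone. In Rspo2KO against wt, 4 of the 10 genes (*Fzd2*, *Fzd6*, *Lrp5* and *Lrp6*) had an unadjusted p below 0.05, as did 11.9% of all genes tested, and DESeq2 called 0 of the 10. In DKO against Wnt9bKO 0 of the 10 genes were called by edgeR and 0 by DESeq2, beside 0.121% of all genes, and 0 had an unadjusted p below 0.05. In that comparison the log2 differences ran from -0.24 (*Lrp5*) to 0.25 (*Fzd10*), and intervals of 2 SE reached from 0.20 to 0.39 to either side. Smaller differences could not be told from 0 with these libraries, and larger ones need not pass the adjusted threshold. For example, *Fzd6* at -0.68 (SE 0.21) in Rspo2KO against wt was not called (adjusted p = 0.242). Of the comparisons made, these 2 lie within libraries of like small nuclear RNA content, and the others do not. In both, however, *Xist* also differed between the labels. DKO against Wnt9bKO further held the libraries Wnt9bKO 2 and DKO 3, whose *Rspo2* counts go against their labels.

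Whether the effects of the mutations add on the log2 scale was tested as the interaction of the genotypes (DKO minus Wnt9bKO minus Rspo2KO plus wt). None of the 10 genes was called, beside 0.0635% of all genes, and DESeq2 also called 0. At an unadjusted p below 0.05 there were 2, beside 9.45% of all genes tested. These were *Lrp5* with -0.70 (SE 0.22, adjusted p = 0.427) and *Lrp6* with -0.59 (SE 0.17, adjusted p = 0.427). In both co-receptors the DKO libraries were thus lower than the sum of the log2 changes under the Wnt9bKO and Rspo2KO labels would give, by a difference that failed the correction. Without the filter on low counts *Lrp5* was called.

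Added up in RPKM, the Frizzled transcripts were lowest in the Rspo2KO libraries, each of which lay below every other library, and the co-receptor transcripts were lowest in the wt libraries. The sum of the 8 Frizzled genes was 120.5 and 123.8 RPKM in wt, 110.2 to 112.8 RPKM in Rspo2KO, 117.3 to 136.0 RPKM in Wnt9bKO and 116.7 to 133.0 RPKM in DKO. The sum of *Lrp5* and *Lrp6* was 12.5 and 14.5 RPKM in wt, 16.6 to 22.3 RPKM in Rspo2KO, 23.7 to 26.1 RPKM in Wnt9bKO and 21.2 to 22.8 RPKM in DKO. The ratio of the LRP sum to the Frizzled sum was therefore 0.104 and 0.117 in wt, 0.150 to 0.201 in Rspo2KO, 0.185 to 0.205 in Wnt9bKO and 0.168 to 0.182 in DKO, and no mutant library reached down to wt. Within the Frizzled sum, *Fzd2* made up 31.5% and 31.7% in wt, 26.4% to 30.5% in Rspo2KO, 37.5% to 40.9% in Wnt9bKO and 36.8% to 40.4% in DKO. *Fzd10* declined from 9.09% and 10.3% in wt to 3.63% to 5.07% in Wnt9bKO and 3.84% to 7.73% in DKO. Its share in Rspo2KO, 8.06% to 9.75%, overlapped wt. These sums are descriptions of the values already given and were not tested.

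**Figure D4:**
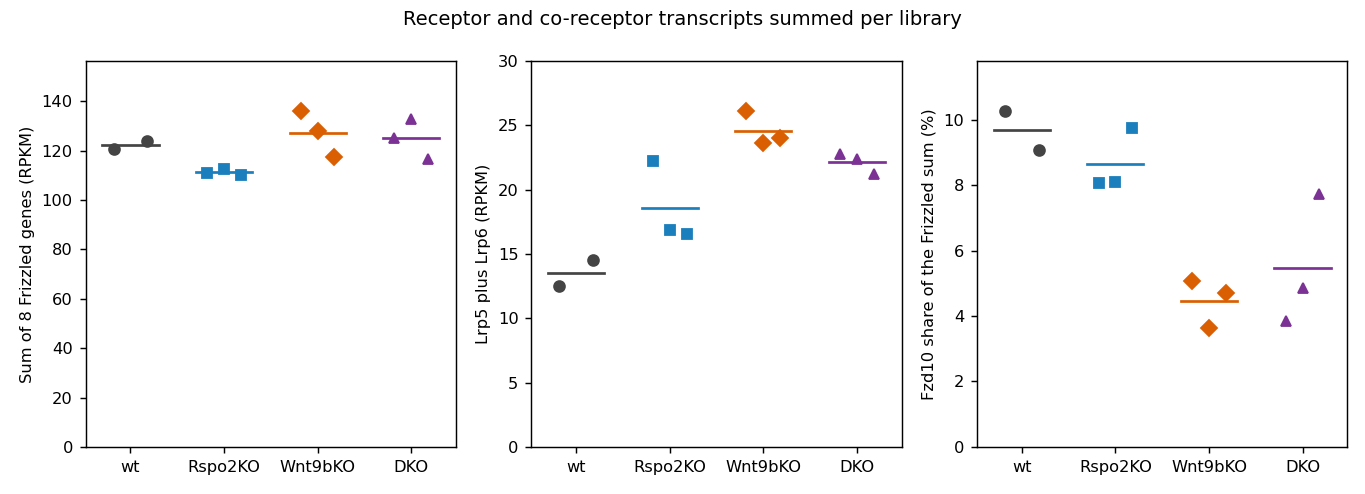
Sum of the 8 Frizzled genes in RPKM, sum of *Lrp5* and *Lrp6* in RPKM, and share of *Fzd10* in the Frizzled sum in percent, with 1 point per library, a line at each group mean and axes starting at 0. The Frizzled sum lies between 110.2 and 136.0 RPKM, while the LRP sum is 12.5 and 14.5 RPKM in wt and 16.6 to 26.1 RPKM in the mutant libraries.

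The co-receptor genes are unusually long, and fold changes in these data varied with length. The merged exons of *Lrp6* span 13672 bases and those of *Lrp5* 9738 bases, which places them at percentiles 96.7 and 90.8 of the tested genes. In the longest of 4 equal classes of genes by length the median log2 fold change was 0.19 in Wnt9bKO, 0.18 in DKO and 0.08 in Rspo2KO, against -0.11, -0.11 and -0.02 in the shortest class. By GC content, the median in Wnt9bKO was 0.04 in the lowest of 4 classes and -0.07 in the highest. With an offset fitted to GC content and length in each library, *Lrp6* remained higher by 0.63 in Wnt9bKO (SE 0.11, adjusted p = 0.000885) and by 0.51 in DKO (SE 0.11, adjusted p = 0.00376), so the size of its change, though not its call, depended on this step. *Fzd3*, at percentile 96.0 of length and 7.31 of GC content, moved down by the same step and gained its calls. *Fzd2* and *Fzd10*, of middling length but at percentiles 85.4 and 84.9 of GC content, kept theirs in Wnt9bKO, at 0.46 and -0.93.

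**Figure D5:**
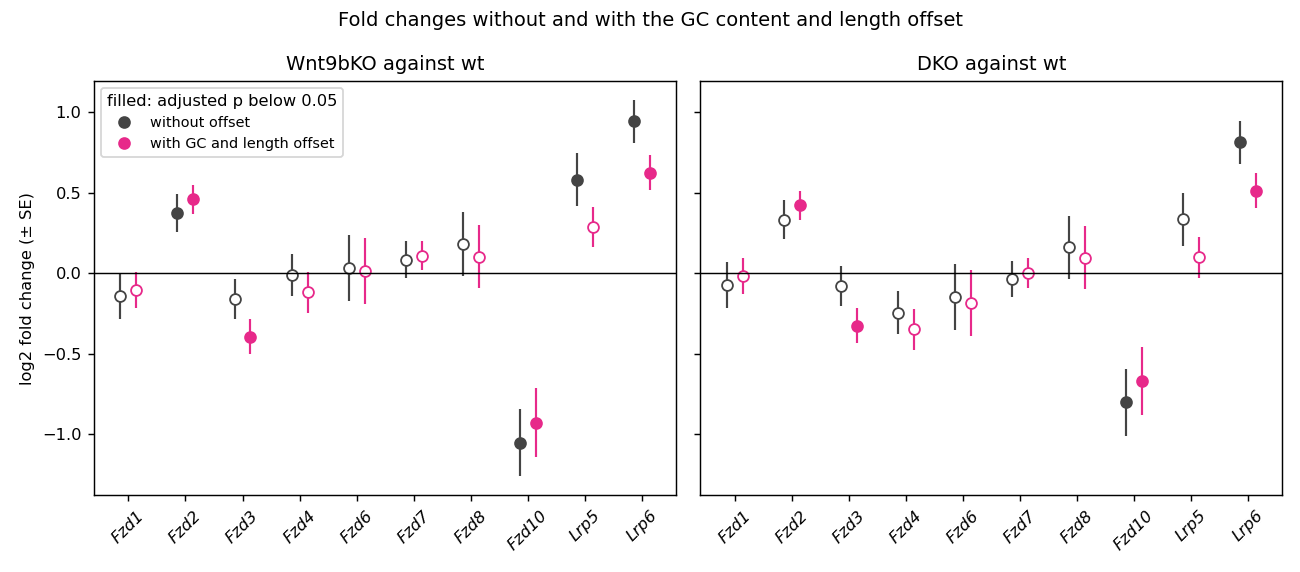
Log2 fold changes of the 10 genes against wt without (grey) and with (pink) an offset for GC content and gene length, with bars of 1 SE and filled points for an adjusted p below 0.05. *Lrp6* moves from 0.94 to 0.63 in Wnt9bKO and from 0.81 to 0.51 in DKO and stays filled, while *Lrp5* in Wnt9bKO turns open, *Fzd2* in DKO turns filled and *Fzd3* turns filled in both panels.

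The proteins that chaperone, modify or act with these receptors were examined through a list of 62 genes, of which 58 were tested. In Wnt9bKO 16 were called, namely 10 above and 6 below wt, or 27.6% of those tested, and in DKO 18 were called, 11 higher and 7 lower, or 31.0%. Both shares are near those of all genes given above. In Rspo2KO 0 were called by edgeR and 3 by DESeq2, which over all genes called 6 and 177. Of the 18 cytoplasmic partners, the longest list by role, 8 were called in Wnt9bKO (5 higher and 3 lower) and the same 8 in DKO, or 44.4%, beside 32.8% and 27.5% of all genes, a difference that was not tested. These comprised *Gsk3b*, *Axin1*, *Cdk14*, *Dvl1*, *Iqgap1*, *Frat2*, *Csnk1g2* and *Csnk1g3*. Of the 7 tested genes of receptor turnover, the ligase gene *Znrf3* was lower in Wnt9bKO and DKO and *Rspo3* was higher in DKO, while *Rnf43*, *Lgr4*, *Lgr5*, *Lgr6* and *Rspo1* passed in neither. These turnover genes are named after their values were seen.

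The partners with the smallest p included a gene of each kind of kinase that phosphorylates the LRP tail. Of the other listed kinases of these kinds, *Csnk1g3* was called in Wnt9bKO and DKO against wt. *Gsk3a*, *Csnk1g1*, *Csnk1a1* and *Csnk1e* were called in neither. *Gsk3b*, the kinase that primes the repeats shown above, was at 94.6 and 109.2 CPM in wt, 218.2, 133.6 and 148.6 CPM in Rspo2KO and 263.2 to 295.3 CPM in the Wnt9bKO and DKO libraries, which all lay above the rest. It was higher than in Rspo2KO by 0.77 on the log2 scale in Wnt9bKO (SE 0.15, adjusted p = 0.00181) and by 0.71 in DKO (SE 0.15, adjusted p = 0.00398). *Csnk1g2*, a membrane-bound casein kinase 1, moved the other way, from 197.7 and 210.8 CPM in wt to 109.9 to 131.7 CPM in the Wnt9bKO and DKO libraries. It differed from Rspo2KO by -0.50 in Wnt9bKO (SE 0.10, adjusted p = 0.00256) and -0.48 in DKO (SE 0.10, adjusted p = 0.00417). *Dvl1*, a Dishevelled that binds the Frizzled motif, was lower than in Rspo2KO by 0.50 in Wnt9bKO (-0.50, SE 0.12, adjusted p = 0.00865), and its level was 30.3 to 40.7 CPM there against 48.5 to 54.7 CPM. In the same comparison its paralog *Dvl2* was called higher and *Dvl3* was not called, so the Dishevelled genes did not move together.

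Outside the cell, *Sfrp2*, a secreted protein with a Frizzled-like domain that binds WNT, was at 17.3 and 20.8 CPM in wt, 28.5 to 41.6 CPM in Rspo2KO, 38.3 to 45.6 CPM in Wnt9bKO and 36.8 to 38.1 CPM in DKO. It rose by 1.14 in Wnt9bKO (SE 0.15, adjusted p = 0.000143) and 0.97 in DKO (SE 0.15, adjusted p = 0.000527), and no mutant library reached down to wt. *Lypd6*, a membrane-anchored protein that associates with LRP6, was at 10.3 to 11.5 CPM in DKO against 6.86 to 7.49 CPM in Rspo2KO, a log2 difference of 0.61 (SE 0.13, adjusted p = 0.00556). *Fzd5* was the only gene called among the 6 other WNT receptors in Wnt9bKO, higher by 0.84 (SE 0.26, adjusted p = 0.0254), and the median over the 58 genes was 0.09 in Wnt9bKO and 0.06 in DKO.

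For each called receptor, the genes with the most similar levels over the 11 libraries were listed, by Pearson's r of log2 CPM over 14560 protein-coding genes. They were *Zdhhc8* (0.992) and *Sf3a1* (0.989) for *Lrp6*, *Bcl9l* (0.980) and *Ank1* (0.972) for *Lrp5*, and *Vps37c* (0.984) and *Srrt* (0.983) for *Fzd2*. For *Fzd10* they were *Hist1h1c* (0.973) and *Ptf1a* (0.961), and for *Fzd6* *Grap* (0.930) and *Tfap2c* (0.923). The points share their libraries and genotype groups, and these values describe the 11 libraries only. Among the receptors themselves, r was 0.74 for *Lrp5* and *Lrp6*, -0.85 for *Fzd10* and *Lrp6*, and 0.62 for *Fzd2* and *Fzd7*. After subtraction of genotype means these became 0.68, -0.34 and 0.82.

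A pair of receptor genes lie on the chromosome of a mutated gene. *Fzd2* is 1.12 Mb from *Wnt9b* and *Fzd6* is 3.98 Mb from *Rspo2*, so that an allele linked to the mutation and a response to it cannot be told apart for these genes by the label alone. Within 2 Mb of *Wnt9b*, 19 of 63 tested genes (30.2%) were called in Wnt9bKO against wt, and within 5 Mb of *Rspo2*, 0 of 25 were called in Rspo2KO against wt and 7 of 25 (28.0%) in Wnt9bKO against Rspo2KO. These shares are near those of all genes given above. The windows were chosen after the data were seen. Reads shared with other genes are few for the 10 receptors, since between 0% and 2.12% of the 50-base stretches of their transcripts occur in another gene, the highest share being that of *Fzd6*.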

How the data were processed

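Facial process explants of 11 embryonic samples were analysed from the authors' deposited counts, whole numbers of reads per Ensembl gene in each library without normalization. Per the labels and the study's methods, the authors trimmed single-end reads with cutadapt, used STAR for alignment to GRCm38 and HTSeq for counting. Whether counting used strand is not given in the sources used here. Symbols, positions and lengths come from GENCODE M21 (36639 genes matched). Libraries were compared with edgeR 4.0.16 in R 4.3.3 (filterByExpr, TMM, quasi-likelihood F test, 1 model with a mean per genotype over all 11 libraries, Benjamini-Hochberg adjustment). The study's DESeq2 (here 1.42.0), other scalings and filters, an offset for GC content and length (loess, span 0.3, 98.3% of tested genes with a value) and fits leaving out libraries were alternatives. SEs were derived from the F statistic. The procedure was tested on simulated counts with known changes. Sums, ratios and correlations are descriptions. All 10 members are named, with the 3 partners of smallest p per comparison and the 2 most similar genes per called member. Members, lists and tests were chosen with earlier results of these data known.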

Additional observations from a re-analysis of the deposited data

How the results depend on the processing

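With 2 wt libraries, calls against wt depend on each of them. The number of the 10 receptor genes called in Wnt9bKO against wt (4) ranged from 2 to 4 when 1 library was left out, with 2 remaining without wt 1 or wt 2 (*Fzd10* and *Lrp6*), that in DKO against wt (2) from 1 (without wt 1) to 4 (without Rspo2KO 1), that in DKO against Rspo2KO (2) from 1 (without wt 1, Rspo2KO 2, Rspo2KO 3, Wnt9bKO 3 or DKO 2) to 2, and that in Wnt9bKO against Rspo2KO (4) from 3 to 6. Called partners ranged from 6 to 18 in Wnt9bKO (6 without wt 1 or wt 2, 10 without Wnt9bKO 3), 0 to 1 in Rspo2KO (1 without Rspo2KO 2) and 8 to 20 in DKO against wt (8 without wt 1, 10 without wt 2). With the study's rule (unadjusted p below 0.05 and more than 1.5-fold), 2 receptor genes passed in Wnt9bKO and 1 in Rspo2KO (*Fzd6*), both against wt. In DKO against Rspo2KO 1 passed, and the interaction, without a fold threshold, gave 2. The partner counts, of 58 tested, were 9 in Wnt9bKO and 7 in Rspo2KO. Of all genes tested, this rule took 24.8% in Wnt9bKO, 4.68% in Rspo2KO, 12.2% in DKO against Rspo2KO and 9.45% for the interaction. Without the low-count filter the receptor counts were 2 in Rspo2KO against wt (*Fzd6* and *Lrp6*), 4 in DKO against Rspo2KO and 1 for the interaction. The partner count in Rspo2KO was then 6. Calls over all genes rose from 6 to 572 in Rspo2KO against wt and from 3155 to 3537 in DKO against Rspo2KO. For the interaction they rose from 11 to 347. Without the filter more genes were tested, so these counts cannot be read as shares. DESeq2 called 3 partners in Rspo2KO, and 177 genes in all. In DKO against wt the count was 4 with only the groups compared, 4 with the GC content and length offset and 5 with that offset and the replicate block. The cause of these moves was not tested.

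Same-numbered libraries correlated by -0.105 to 0.236 over 15 pairs, of which 3 exceeded 0.1, and 6 of 11 libraries correlated best with their own number. These correlations are of deviations from the genotype means, which cancel out within a group. The values of wt 1 and wt 2 therefore mirror each other, and the pairs are not independent. Among the mutant groups all 9 same-numbered pairs were positive (0.0415 to 0.236) and 15 of 18 other pairs negative. Because the deviations cancel out, the negative pairs follow in part from the positive ones and are no separate evidence. The positive pairs are at most a hint that the numbers mark something shared, which was not tested. No label says so, and the numbers were not taken as pairing. With the replicate block the counts were 4 in Wnt9bKO against wt, 3 in DKO against wt and 5 in Wnt9bKO against Rspo2KO, which added *Fzd2* in DKO against wt (0.40, adjusted p = 0.00877) and *Fzd3* in Wnt9bKO against Rspo2KO (-0.30, adjusted p = 0.0251).

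Reversed signs concerned values near 0 that passed no test. *Fzd4* in Wnt9bKO against wt was 0.0138 with upper-quartile factors, 0.00721 with at least 10 counts in every library and 0.0161 on autosomal protein-coding genes, and ranged from -0.133 to 0.110 when 1 library was left out. *Fzd6* in Wnt9bKO was -0.0332 with the replicate block, -0.0568 with the block and the offset, and -0.0631 to 0.109 without 1 library. *Fzd3* in Rspo2KO was -0.00852 with the offset and -0.0220 with offset and block. *Fzd7* in DKO was 0.0249 with the block, 0.00229 with the offset, 0.0369 with both and -0.102 to 0.0280 without 1 library. Without 1 library, *Fzd1* ranged from -0.0564 to 0.141 in Rspo2KO and from -0.179 to 0.0342 in DKO, and *Fzd8* from -0.0425 to 0.339 in Wnt9bKO. With the libraries labelled Wnt9bKO 2 and DKO 3 both left out, an alternative added after the data were seen, *Fzd8* in Wnt9bKO was -0.0718, *Fzd1* in DKO 0.0122 and *Fzd7* in DKO 0.0288. In RPKM of the longest transcript in place of merged exons, *Lrp6* moved from rank 6 to rank 4 of the 10 genes in wt. It then exceeded *Fzd7* in the Wnt9bKO libraries, DKO 1 and DKO 3, but not in the others. The ratio of the LRP sum to the Frizzled sum became 0.141 and 0.161 in wt and 0.206 to 0.282 in the mutant libraries.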
